A study of Mus musculus with 4 samples.

Results

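Fibroblast growth factors (FGFs), their receptors and the genes that damp or answer the ERK kinase downstream of them were compared between Six2GFP-positive and Six2GFP-negative cells of the mouse embryonic kidney. The set was a list of 39 genes given by symbol: 18 FGF genes, 5 receptor genes, 2 receptor partners, 2 adaptors and 12 feedback or ERK target genes. They were read by 56 of the 39395 usable non-control probes, and 34 of the 39 were among the 24150 genes or transcripts tested. The tested cells carried a green reporter named Six2GFP, and the comparison cells were sorted as GFP-negative. Both came from E15.5 kidneys of hybrid 129 and C57BL/6 mice, were parted by flow cytometry, and were measured on 2 one-colour arrays per group. The labels do not say how the reporter was built, whether embryos were pooled, or whether the arrays of a group came from separate litters, so p-values measure only the spread between these samples. A description field mentions tamoxifen, which the protocols do not, and a cell type field gives the negative cells the name of the progenitors, so groups were taken from the titles.

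FGFs are secreted proteins that bind receptor tyrosine kinases on nearby cells, and the receptors pass the signal through docking proteins to the cascade that activates ERK. ERK switches on genes of the ETS family and also its own brakes, the Sprouty and Spred proteins and the dual-specificity phosphatases. In the mouse kidney, FGF9 and FGF20 are known to maintain the cap mesenchyme, the nephron progenitors that express the transcription factor Six2, while FGF10 and FGF7 act on the branching ureteric bud.

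Well above background were 75.2% and 72.5% of the spots in positive cells and 79.1% and 76.8% in negative cells, and none was saturated. Signals are given as log2 of the processed signal above or below the 75th percentile of that array, which does not allow levels of different genes to be compared. Six2 stood at 5.58 and 5.73 in positive cells and at -0.17 and -0.15 in negative cells, a difference of 5.82 ± 0.10 (limma standard error; adjusted p = 5.0e-04). Of 8 nephron progenitor markers, 7 were higher in positive cells and Eya1 did not pass the test. The summed linear level of these 8 was 173 and 168 in positive cells against 33.7 and 34.6 in negative cells, in multiples of the array's 75th percentile. Lower in positive cells were 7 of 7 early nephron, 4 of 4 podocyte, 7 of 7 ureteric bud, 4 of 5 stromal, 5 of 5 endothelial and 4 of 4 red cell markers, and 0 of 5 macrophage markers passed in either direction. Summed linear levels of the ureteric bud list were 2.89 and 2.17 in positive cells against 26.7 and 34.3 in negative cells, and those of the stromal list 6.54 and 4.76 against 72.6 and 64.8, in multiples of the array's 75th percentile. The summed early nephron list gave 2.44 and 2.61 in positive cells and 21.4 and 26.7 in negative cells. Markers of several other cell types thus moved with the lower FGF genes, and their part in those results was not tested. In such bulk samples fewer cells of a type and less RNA per cell cannot be told apart.

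The set did not move as a block. At an adjusted p of 0.05 (limma, Benjamini-Hochberg over all genes), 11 of the 34 tested members were higher in positive cells and 10 were lower, while 13 did not pass. Over all genes tested 38.9% passed, 20.6% as higher and 18.3% as lower, so passing the test was common on these arrays. Of the members 61.8% passed, 32.4% as higher and 29.4% as lower. At a difference of at least 2-fold as well, 7 members (20.6%) were higher and 8 (23.5%) lower, against 3.62% and 12.7% of all genes. Of these 8, Fgf2, Fgf5, Fgf12 and Spry3 were below background in positive cells and were counted by their fitted difference. A filter that kept only probes above background on all 4 arrays left 29 members. Of those, 6 (20.7%) passed as at least 2-fold higher and 4 (13.8%) as at least 2-fold lower. With normexp background correction 5 members (14.7%) were higher and 3 (Fgfr3, Fgfr4 and Flrt2, 8.82%) lower by that much. The shares of all genes past 2-fold with this filter or this correction are not given here. The 2 groups did not overlap for 30 members, or 88.2%, against 74.8% of all genes. The members' median difference was 0.16 and that of all genes 0.15. These counts leave out the 5 members that were too dim to be tested, and 4 of the 10 lower members were tested only because they were above background in negative cells, as Fgf20 was only through positive cells. With each array's median in place of its 75th percentile every difference rises by 0.25, and 17 of the 34 members were then higher and 9 (26.5%) lower, against 44.8% and 15.6% of all genes.

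**Figure D1:**
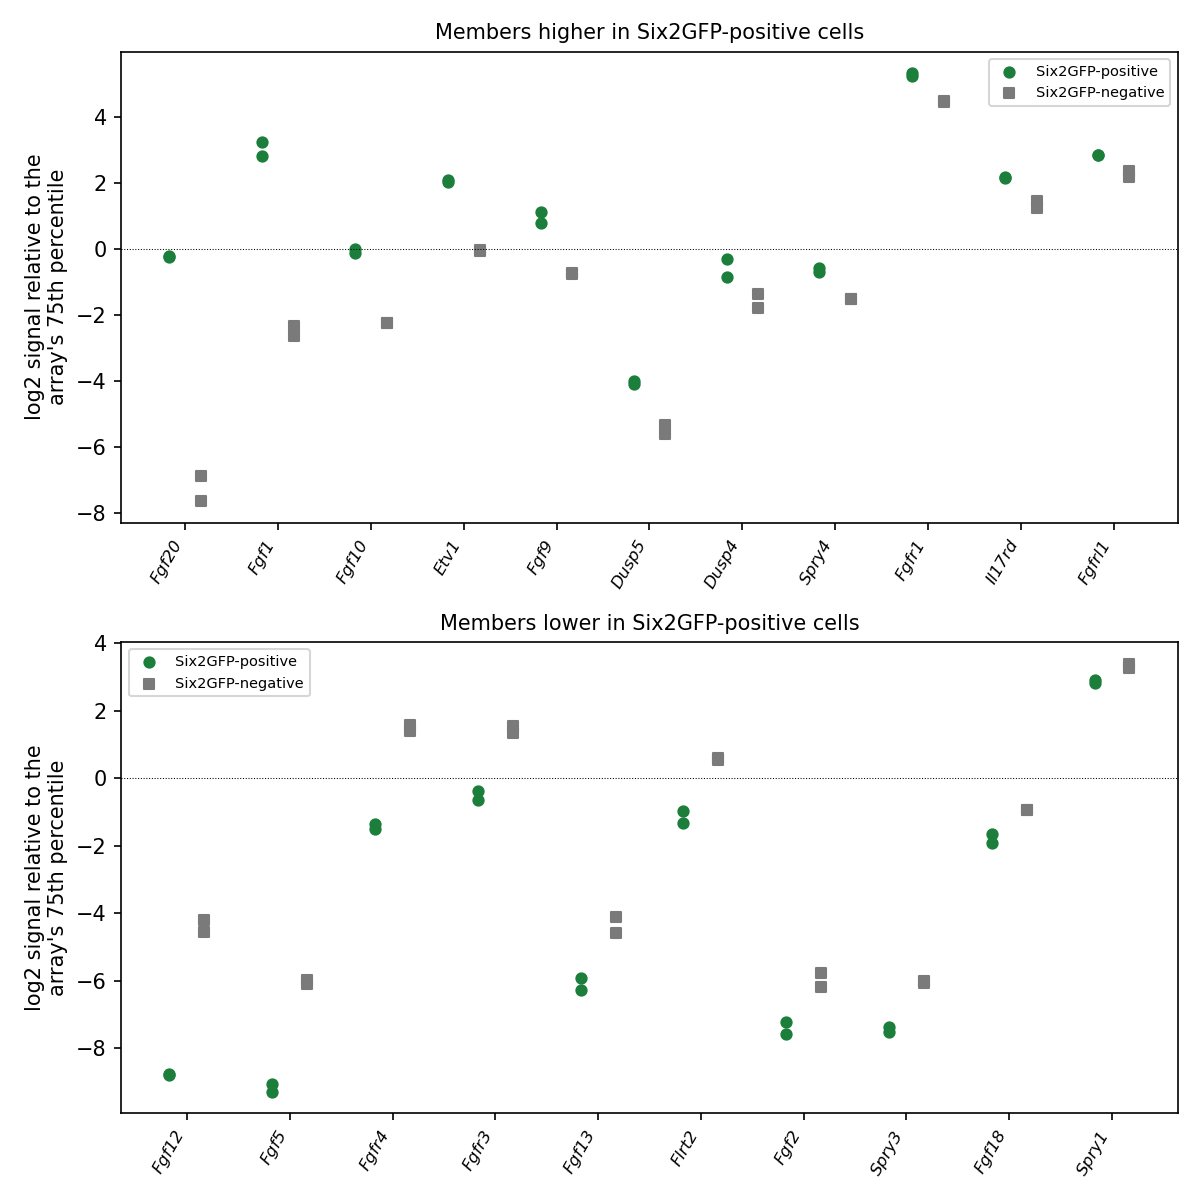
Log2 signal above or below the array's 75th percentile (vertical axis) on each array for the 11 members higher (upper panel) and the 10 lower (lower panel) in Six2GFP-positive cells; circles are the 2 positive arrays and squares the 2 negative arrays. The 21 genes were picked by the test, and in each both circles lie on one side of both squares. Of all genes tested, 74.8% had groups that did not overlap. Among genes above background on all 4 arrays the differences run from 5.52 for Fgf1 to -2.92 for Fgfr4. The circles of Fgf12, Fgf5, Fgf2 and Spry3 were not well above background.

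The secreted FGFs that act on neighbouring cells split in both directions. Of 13 such ligands, 9 were tested. Fgf20, Fgf1, Fgf10 and Fgf9 were higher in positive cells, Fgf18, Fgf2 and Fgf5 were lower, and Fgf22 and Fgf7 did not pass. Among all genes tested, 20.6% were higher and 18.3% lower. Fgf2 and Fgf5 were tested only through negative cells, and Fgf20 only through positive cells. The median difference of the 9 ligands was 0.14. It was 0.41 with quantile normalization and 0.92 over the 6 ligands above background on all 4 arrays. The 4 higher ligands all passed by over 3-fold, and the smallest of their differences was that of Fgf9.

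Fgf20, a ligand of the cap mesenchyme, stood at -0.21 and -0.24 in positive cells and at -7.63 and -6.88 in negative cells, read by a probe at mm9 chromosome 8, 41365079 to 41365138. The difference was 7.03 ± 0.28, or 131-fold (adjusted p = 6.7e-04). Both positive arrays were far above both negative arrays, of which only 1 was well above background. A second Fgf20 probe read -0.75 and -0.78 in positive cells against -7.71 and -7.15 in negative cells, where neither array was well above background. That probe was at least 90.5-fold higher in positive cells (adjusted p over all probes = 5.2e-04 for the fitted difference). With normexp background correction the Fgf20 difference was 4.30, still a higher call, so the size of this fold depends on the background correction.

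Fgf1, a ligand that can bind every FGF receptor, gave 2.80 and 3.24 in positive cells and -2.64 and -2.34 in negative cells. It was 45.8-fold higher, a log2 difference of 5.52 ± 0.21 (adjusted p = 6.2e-04), with no overlap between the groups. The second Fgf1 probe stood at -3.70 and -3.28 in positive cells against -7.07 and -7.36 in negative cells, of which 1 array was well above background. Its difference of 3.72, or 13.2-fold (adjusted p over all probes = 0.00104), had the same direction but was smaller. Among kept probes, Fgf1 was the only member whose probes differed from each other by over 2-fold.

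Fgf10, best known as a mesenchymal ligand for epithelial FGFR2, stood at -0.01 and -0.12 in positive cells and at -2.25 on both arrays of negative cells. It was 4.56-fold higher in positive cells, a difference of 2.19 ± 0.09 (adjusted p = 7.0e-04), and the groups were well apart. Fgf9, which together with Fgf20 keeps nephron progenitors in the mouse, gave 0.78 and 1.12 in positive cells against -0.72 and -0.76 in negative cells. The Fgf9 difference was 1.70 ± 0.15, or 3.24-fold (adjusted p = 0.0035), again without overlap. The probes lie at mm9 chromosome 13, 119580365 to 119580424 (Fgf10) and chromosome 14, 58728897 to 58728956 (Fgf9). GTTTCA, letters that occur within the Six2 binding motif, was in promoter windows of Fgf10, Etv1, Fgf13 and Spred1. Of these genes Fgf13 was lower in positive cells and Spred1 did not pass. The promoter window of Fgf10 is shown with GTTTCA in capitals. It runs 5′ to 3′ on the plus strand from 250 bases before to 50 after the start, from RefSeq on GRCm38.p6.
Fgf10 chr13:118714449-118714748 (+): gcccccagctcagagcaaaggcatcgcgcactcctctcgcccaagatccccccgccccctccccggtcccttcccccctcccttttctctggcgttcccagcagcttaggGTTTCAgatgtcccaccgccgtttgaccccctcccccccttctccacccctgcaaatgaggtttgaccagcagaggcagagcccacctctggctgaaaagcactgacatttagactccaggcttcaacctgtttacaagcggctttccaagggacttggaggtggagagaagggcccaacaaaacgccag

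Among the lower ligands, Fgf18, which acts in skeletal and lung development, gave -1.93 and -1.66 in positive cells and -0.95 and -0.94 in negative cells. It was lower by 0.85 on the log2 scale (difference -0.85 ± 0.13, adjusted p = 0.0135), and its second probe gave -1.02 (adjusted p over all probes = 0.0133). The groups did not overlap, although the call was lost without negative array 1 (adjusted p = 0.0610) or negative array 2 (adjusted p = 0.0666).

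Fgf2, or basic FGF, was below background in positive cells, at -7.24 and -7.59, and stood at -5.78 and -6.20 in negative cells. It was at least 2.08-fold lower in positive cells (adjusted p = 0.0138 for the fitted difference of -1.43). The bound sets the negative mean against the lowest signal that counts as well above background, and the p-value does not test it. Without positive array 2 the call was lost (adjusted p = 0.0555), and it was lost with normexp correction and the 75th percentile (difference -0.12, adjusted p = 0.257) and in the series value table (difference -0.59, adjusted p = 0.112). Fgf5, known for ending hair growth, read -9.30 and -9.06 in positive cells, not well above background, against -5.97 and -6.09 in negative cells. Its bound was at least 2.02-fold lower (adjusted p = 6.6e-04 for the fitted difference). With normexp correction and the 75th percentile the Fgf5 difference was -0.21 and did not pass (adjusted p = 0.131). Both genes were detected in negative cells alone, and both were dim there.

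Fgf7 and Fgf22, relatives of Fgf10 that signal to epithelium, did not pass. Fgf7 stood at -4.54 and -5.20 in positive cells and at -4.27 and -4.73 in negative cells, with overlapping groups and a difference of -0.37 ± 0.30 (adjusted p = 0.375, 95% interval -1.20 to 0.46). The Fgf22 difference was 0.14 ± 0.09 (adjusted p = 0.289, 95% interval -0.12 to 0.40). Fgf4, Fgf16 and the endocrine ligand Fgf21 were not well above background on any of the 4 arrays, and Fgf3 and Fgf17 were so on 1 negative array each, so none of these 5 was tested. Their probe values lay between -9.55 and -6.84 over the 4 arrays.

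The FGF homologous factors Fgf11 to Fgf14 stay inside the cell, where they bind voltage-gated sodium channels rather than FGF receptors. All 4 were tested: none was higher, and Fgf12 and Fgf13 were lower, against 20.6% higher and 18.3% lower of all genes. The median difference was -0.89. That median includes the fitted value of Fgf12, and was -0.24 with normexp correction and -0.033 over the 3 genes above background on all 4 arrays. Fgf12 was below background in positive cells, at -8.76 and -8.79, and stood at -4.19 and -4.55 in negative cells. It was at least 6.39-fold lower in positive cells (adjusted p = 5.7e-04 for the fitted difference), and a second probe gave a bound of at least 4.10-fold. Fgf13 read -6.27 and -5.91 in positive cells against -4.60 and -4.10 in negative cells, a difference of -1.74 ± 0.23 (3.34-fold lower, adjusted p = 0.0106). Both lower genes had non-overlapping groups, but with normexp correction their differences shrank to -0.91 for Fgf12 and -0.58 for Fgf13.

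Fgf11 did not pass (difference -0.03 ± 0.09, adjusted p = 0.799). Fgf14 stood at -3.95 and -4.23 in positive cells and at -4.44 and -5.76 in negative cells. Its difference of 1.01 ± 0.49 did not pass (adjusted p = 0.177, 95% interval -0.35 to 2.37), as the negative arrays lay far apart from each other. Without negative array 1 it was 1.67 (adjusted p = 0.0242), and without negative array 2 it was 0.35. It also passed with the array median as scale (1.26, adjusted p = 0.0405) and with normexp and quantile normalization (0.59, adjusted p = 0.0395). The other Fgf14 probes and the second Fgf22 probe were not well above background on any array.

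**Figure D2:**
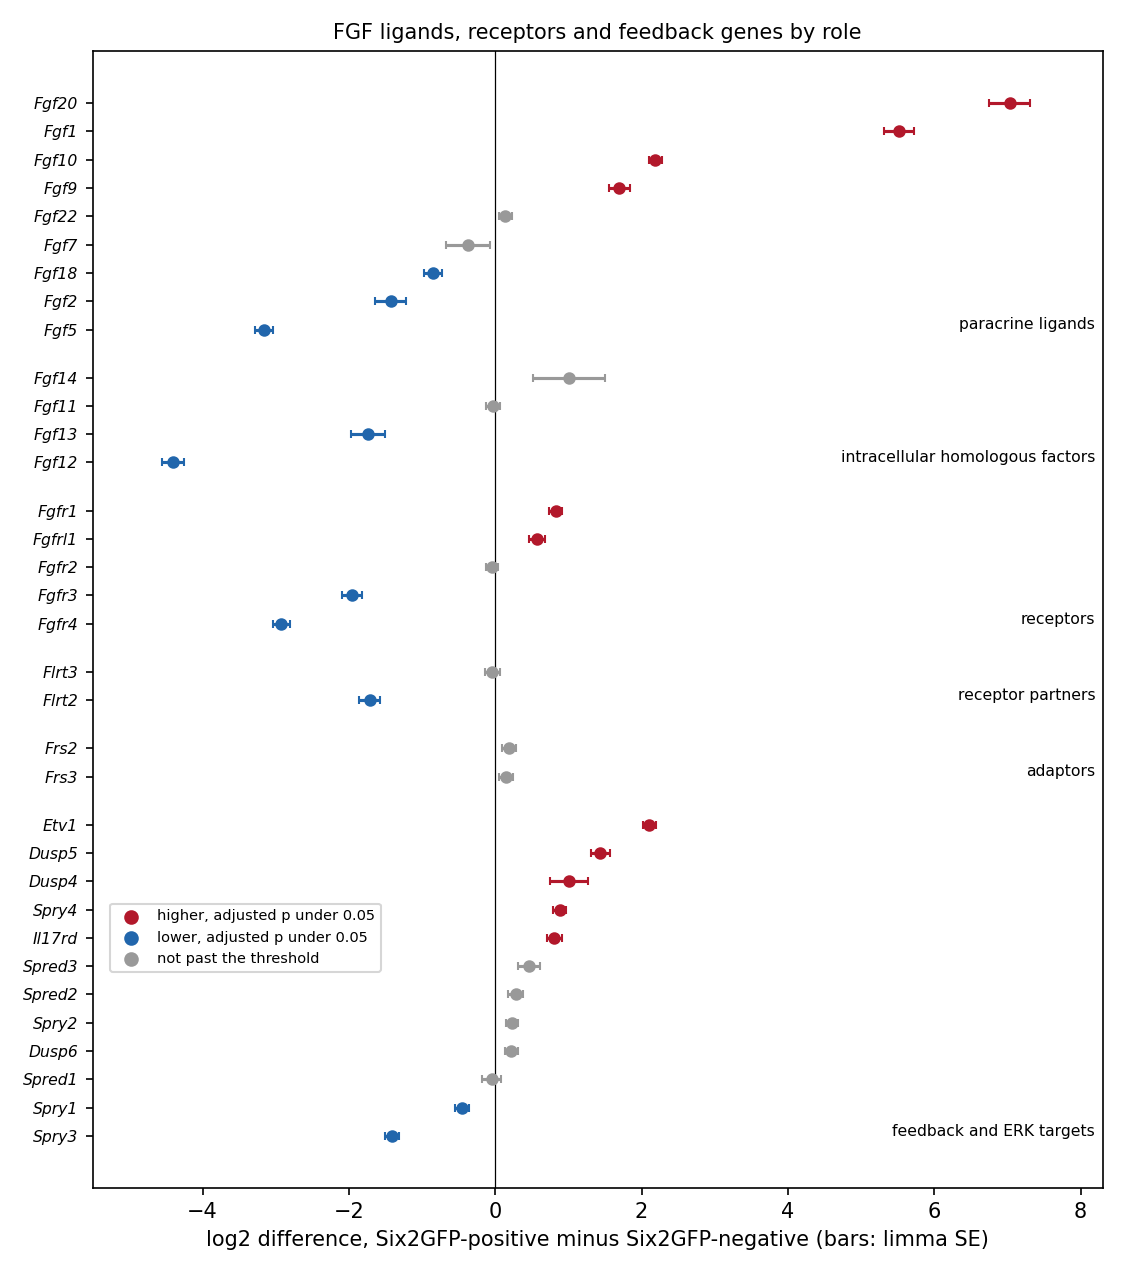
Log2 difference of each of the 34 tested members, Six2GFP-positive minus Six2GFP-negative (horizontal axis), by role, with limma's standard error as bars; colour marks genes past an adjusted p of 0.05. Among genes above background on all 4 arrays, points run from Fgf1 at 5.52 to Fgfr4 at -2.92; for Fgf12, Fgf2, Fgf5 and Spry3 the fitted value is plotted although positive cells were below background, so the bound in the text applies.

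The receptors also split, with the pair that passed as higher below 2-fold and the pair that passed as lower well beyond it. Fgfr1 and Fgfrl1 were higher in positive cells, Fgfr3 and Fgfr4 were lower, and Fgfr2 did not pass. The shares of all genes tested were 20.6% higher and 18.3% lower. The median over the 5 receptors was -0.05, a sign that turns with the array median as scale (0.21) and with normexp and quantile normalization (0.01). With the array median as scale the Fgfr1 difference was 1.08, which is past 2-fold.

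Fgfr1, a receptor that the cap mesenchyme of the mouse uses, stood at 5.23 and 5.32 in positive cells and at 4.43 and 4.47 in negative cells. It was 1.77-fold higher, a difference of 0.83 ± 0.09 (adjusted p = 0.00594), and its 3 probes gave 0.40, 0.83 and 0.96, each past the threshold in the fit over all probes. Fgfrl1, a receptor that lacks the kinase domain and is needed for nephron formation in the mouse, gave 2.83 and 2.84 in positive cells against 2.16 and 2.35 in negative cells. Its difference was 0.57 ± 0.11 (1.49-fold higher, adjusted p = 0.0227). In both genes the positive arrays lay above the negative arrays. The Fgfrl1 call was lost without positive array 1 (adjusted p = 0.0999), positive array 2 (0.106) or negative array 1 (0.0673), and with no filter on dim probes (0.0504).

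Fgfr4 read -1.36 and -1.52 in positive cells and 1.40 and 1.57 in negative cells, a difference of -2.92 ± 0.12 (7.59-fold lower, adjusted p = 6.8e-04). A second Fgfr4 probe gave -2.27 (adjusted p over all probes = 5.6e-04). Fgfr3, best known for restraining bone growth, read -0.63 and -0.38 in positive cells and 1.34 and 1.55 in negative cells. It was 3.88-fold lower, a difference of -1.96 ± 0.14 (adjusted p = 0.00224), and its second probe gave -1.44 (adjusted p over all probes = 0.00159). The groups of both genes stood far apart, and both were well above background on every array. The probes of Fgfr1, Fgfr3 and Fgfr4 lie at mm9 chromosome 8, 26685072 to 26685131, chromosome 5, 34079649 to 34079708, and chromosome 13, 55270033 to 55270092.

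Fgfr2, whose epithelial form receives FGF7 and FGF10 in the ureteric bud, stood at -0.70 and -0.76 in positive cells and at -0.68 and -0.69 in negative cells. The 4 arrays lay within 0.1 of each other, the positive ones just below the negative ones, and the difference of -0.05 ± 0.08 did not pass (adjusted p = 0.672, 95% interval -0.28 to 0.18). Its second probe gave -0.23 (adjusted p over all probes = 0.131). Which splice form these probes read was not analysed here.

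The promoter window of Fgfr4, the receptor with the largest difference, is shown with CCGGAA, a core of ETS sites, in capitals. It is on the plus strand of GRCm38.p6, from RefSeq.
Fgfr4 chr13:55152568-55152867 (+): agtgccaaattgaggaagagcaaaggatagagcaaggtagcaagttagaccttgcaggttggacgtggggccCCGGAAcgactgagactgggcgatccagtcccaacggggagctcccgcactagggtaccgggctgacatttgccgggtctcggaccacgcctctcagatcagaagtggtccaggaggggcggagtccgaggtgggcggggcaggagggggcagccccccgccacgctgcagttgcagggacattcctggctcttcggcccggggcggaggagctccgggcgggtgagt

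The receptor partners had a median difference of -0.88 and the adaptors of 0.16, over 2 genes each. Flrt2 and Flrt3 are transmembrane partners of FGF receptors, and FLRT3 promotes FGF signalling in Xenopus. Flrt2 gave -1.31 and -0.98 in positive cells and 0.60 and 0.54 in negative cells, 3.29-fold lower at a difference of -1.72 ± 0.14 (adjusted p = 0.00329), and its second probe gave -1.68. Flrt3 read 0.68 and 0.74 in positive cells and 0.66 and 0.84 in negative cells, with overlapping groups and a difference of -0.04 ± 0.10 (adjusted p = 0.777). Its 3 probes ran from -0.09 to 0.10, the only member whose kept probes differed in sign, and none passed. Frs2 and Frs3, the docking proteins that link receptors to the kinase cascade, differed by 0.18 ± 0.10 (adjusted p = 0.199) and 0.14 ± 0.09 (adjusted p = 0.286), and neither passed. Frs2 did pass with the array median as scale (adjusted p = 0.0339), and Frs3 with normexp and quantile normalization (adjusted p = 0.0477).

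**Figure D3:**
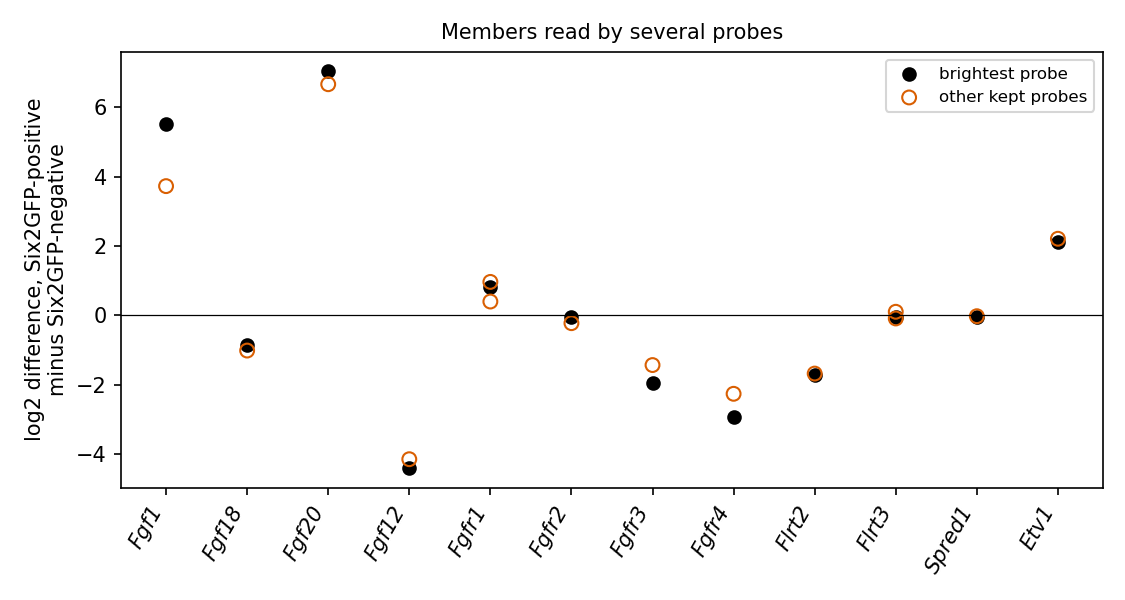
Log2 difference, Six2GFP-positive minus Six2GFP-negative (vertical axis), of each kept probe of the 12 members with several probes; filled points are the brightest probe, which stands for the gene, and open points the others. In 11 members all probes lie on one side of 0; Flrt3 has probes on both sides, and the Fgf1 probes are furthest apart, at 5.52 and 3.72.

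Among the 12 feedback and ERK target genes, 5 were higher in positive cells (Etv1, Dusp5, Dusp4, Spry4 and Il17rd), Spry1 and Spry3 were lower, and 5 did not pass. Over all genes 20.6% were higher and 18.3% lower. The median difference of the 12 was 0.37, against 0.15 for all genes. It was 0.59 with quantile normalization and 0.29 to 0.47 without 1 array. With the array median as scale it was 0.63, against 0.41 for all genes. Of the 4 Sprouty genes Spry4 was higher and Spry1 and Spry3 were lower. Of the 3 ERK phosphatases Dusp4 and Dusp5 were higher and Dusp6 did not pass, and of the 3 Spred genes none passed.

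Etv1, an ETS factor of the PEA3 group that ERK activates, stood at 2.03 and 2.08 in positive cells and at -0.03 and -0.07 in negative cells. It was 4.31-fold higher, a difference of 2.11 ± 0.08 (adjusted p = 6.7e-04), and a second, dimmer probe gave 2.21 (adjusted p over all probes = 0.0015). That dimmer probe was well above background on only 1 of the 2 negative arrays. Dusp5, a nuclear phosphatase specific to ERK, gave -4.07 and -4.0 in positive cells against -5.34 and -5.61 in negative cells. Its difference was 1.44 ± 0.13 (2.71-fold higher, adjusted p = 0.00378), and 0.73 with normexp correction. In both genes the 2 positive arrays were close together and clear of the negative arrays. The windows of these genes are shown with GGAAGT (an ETS core, ACTTCC on the other strand), GTTTCA and the CArG box, the site of serum response factor, in capitals. Both are on the plus strand of GRCm38.p6, from RefSeq, and Etv1 has a second window that is not shown.
Etv1 chr12:38779832-38780131 (+): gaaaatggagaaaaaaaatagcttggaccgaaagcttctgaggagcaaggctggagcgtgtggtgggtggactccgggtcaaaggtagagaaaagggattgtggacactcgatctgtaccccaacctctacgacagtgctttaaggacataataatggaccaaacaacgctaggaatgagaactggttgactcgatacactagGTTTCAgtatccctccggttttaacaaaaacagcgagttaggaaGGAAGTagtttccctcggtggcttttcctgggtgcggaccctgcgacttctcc
Dusp5 chr19:53528895-53529194 (+): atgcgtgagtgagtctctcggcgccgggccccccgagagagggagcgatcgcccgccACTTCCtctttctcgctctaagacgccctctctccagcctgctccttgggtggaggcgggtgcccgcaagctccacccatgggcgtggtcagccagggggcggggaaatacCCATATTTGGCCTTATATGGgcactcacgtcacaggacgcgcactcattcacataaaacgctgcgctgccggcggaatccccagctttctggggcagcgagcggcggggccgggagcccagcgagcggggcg
The Dusp5 window holds 2 CArG boxes side by side, at positions 169 and 179 counted from 1 at its 5′ end.

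Such windows of 300 bases were found for 31 of the 39 members, 39 windows in all, and were searched on both strands. CCGGAA was in 7 of the 39 (17.9%) and in 14.9% of all 32851 windows, and GGAAGT, which can overlap it, in 6 of 39 (15.4%) and 23.8%. GTTTCA was in 4 of 39 (10.3%) and 12.1%, and the CArG box in 1 of 39 (2.56%) and 1.63%. GGGCGG, the GC box, was in 25 of 39 (64.1%) and 35.7% of all windows. Matches describe letters in these windows and not sites in use.

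Dusp4, a nuclear phosphatase of ERK and related kinases, stood at -0.29 and -0.85 in positive cells and at -1.37 and -1.78 in negative cells. The difference of 1.0 ± 0.26, or 2.01-fold, passed narrowly (adjusted p = 0.0485), and the call was lost with no filter on dim probes (0.0866) and without any 1 of the 4 arrays (adjusted p 0.0510 to 0.155). Spry4, a Sprouty brake on receptor signalling, read -0.69 and -0.58 in positive cells and -1.52 on both arrays of negative cells, 1.85-fold higher (difference 0.88 ± 0.09, adjusted p = 0.00509). Il17rd, also called Sef and first known as an FGF antagonist in zebrafish, read 2.13 and 2.18 in positive cells and 1.44 and 1.25 in negative cells, 1.75-fold higher (difference 0.81 ± 0.11, adjusted p = 0.0106). None of the 3 had overlapping groups. The Il17rd call was lost without positive array 1 (adjusted p = 0.0526) or positive array 2 (adjusted p = 0.0621).

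Spry1, which restrains GDNF and RET signalling in the mouse ureteric bud, was lower: it read 2.92 and 2.83 in positive cells and 3.27 and 3.40 in negative cells. The difference was -0.46 ± 0.10, or 1.37-fold (adjusted p = 0.0302), without overlap between the groups. The call did not hold with the array median as scale (difference -0.20, adjusted p = 0.244) or with no filter on dim probes (0.0644), and was lost without any 1 of the 4 arrays (adjusted p 0.0665 to 0.142). Spry3 was below background in positive cells, at -7.39 and -7.52, against -6.08 and -6.00 in negative cells. Spry3 was at least 2.01-fold lower (adjusted p = 0.00202 for the fitted difference). It too lost the call with normexp correction and the 75th percentile (adjusted p = 0.229), with a difference of -0.12. With normexp and quantile normalization Fgf2, Fgf5 and Spry3 passed at differences of -0.23, -0.32 and -0.23, so their bounds hold for the processed signal only. The bounds of Fgf12 and Fgf20 were computed on the processed signal too, and the same limit applies to them.

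Of the genes that did not pass, Dusp6, a cytoplasmic ERK phosphatase often read as a measure of FGF signalling, stood at 3.51 and 3.61 in positive cells and at 3.35 and 3.33 in negative cells. The arrays did not overlap, but the difference of 0.22 ± 0.09 missed the threshold (adjusted p = 0.120, 95% interval -0.02 to 0.47). Spry2 differed by 0.23 ± 0.08 (adjusted p = 0.0943), Spred2 by 0.28 ± 0.10 (adjusted p = 0.0971), Spred3 by 0.47 ± 0.15 (adjusted p = 0.0775) and Spred1 by -0.05 ± 0.13 (adjusted p = 0.782). With the array median as scale, Dusp6, Spry2, Spred2 and Spred3 passed as higher. Spry2 also passed with quantile normalization (adjusted p = 0.0232) and with normexp at either scaling (0.0487 and 0.0177), and Spred3 with quantile normalization of the processed signal (0.0200) or of the normexp signal (0.0244). Dusp6 also passed with an intensity trend (0.0470).

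A second list of 43 FGF and ERK pathway genes outside the set, all of them tested, gave 9 higher (20.9%, against 20.6% of all genes) and 3 lower (6.98%, against 18.3%), with 31 not passing and a median of 0.21. The higher count was 25 (58.1%) with the array median as scale, against 44.8% of all genes on that scale. Of these genes, those past the threshold by at least 2-fold were Fgf8, Etv4 and Myc as higher and Fgf15, Fgfbp1 and Ccnd1 as lower. Fgf8, a ligand needed for nephron formation in the mouse, stood at 1.09 and 1.20 in positive cells and at -0.26 and -0.09 in negative cells (difference 1.32 ± 0.11, adjusted p = 0.00308). Etv4, a PEA3 factor like Etv1, read 4.19 and 4.18 in positive cells against 2.93 and 2.94 in negative cells (difference 1.25 ± 0.08, adjusted p = 0.00174). Both were higher on each positive array, by a similar amount. Myc, a growth regulator, gave 2.16 and 2.33 in positive cells and 0.30 and 0.54 in negative cells (difference 1.82 ± 0.13, adjusted p = 0.00222).

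On the lower side, Ccnd1, the cyclin that drives entry into the cell cycle, read 2.46 and 2.45 in positive cells and 4.68 and 4.90 in negative cells (difference -2.34 ± 0.11, adjusted p = 9.5e-04). Fgf15, an endocrine FGF, read -5.38 and -5.46 in positive cells against -3.49 and -3.19 in negative cells (difference -2.08 ± 0.14, adjusted p = 0.00182). Fgfbp1, a carrier that frees FGFs from the matrix, read -6.05 and -6.92 in positive cells, where 1 array was well above background, and -3.61 and -3.93 in negative cells (difference -2.71 ± 0.34, adjusted p = 0.00891). Its call was lost without negative array 1 (adjusted p = 0.0521). With normexp correction the differences of these last genes were smaller, -1.01 for Fgf15 and -1.03 for Fgfbp1, and both still passed.

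The immediate early genes Fos and Egr1 and the phosphatase Dusp1, chosen after their values were seen, were higher on replicate 1 than on replicate 2 in both groups. Fos stood at 2.94 and 1.23 in positive cells and at 2.74 and 1.01 in negative cells, so that replicate 1 exceeded replicate 2 by 1.72 in positive and 1.73 in negative cells. For Egr1 that excess was 0.64 in positive and 0.69 in negative cells, and for Dusp1 1.07 and 1.14. None of the 3 passed between positive and negative cells (adjusted p 0.862 for Fos, 0.209 for Egr1 and 0.360 for Dusp1). Dusp4 was also higher on replicate 1 of both groups; the part of this shift in its value was not tested.

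**Figure D4:**
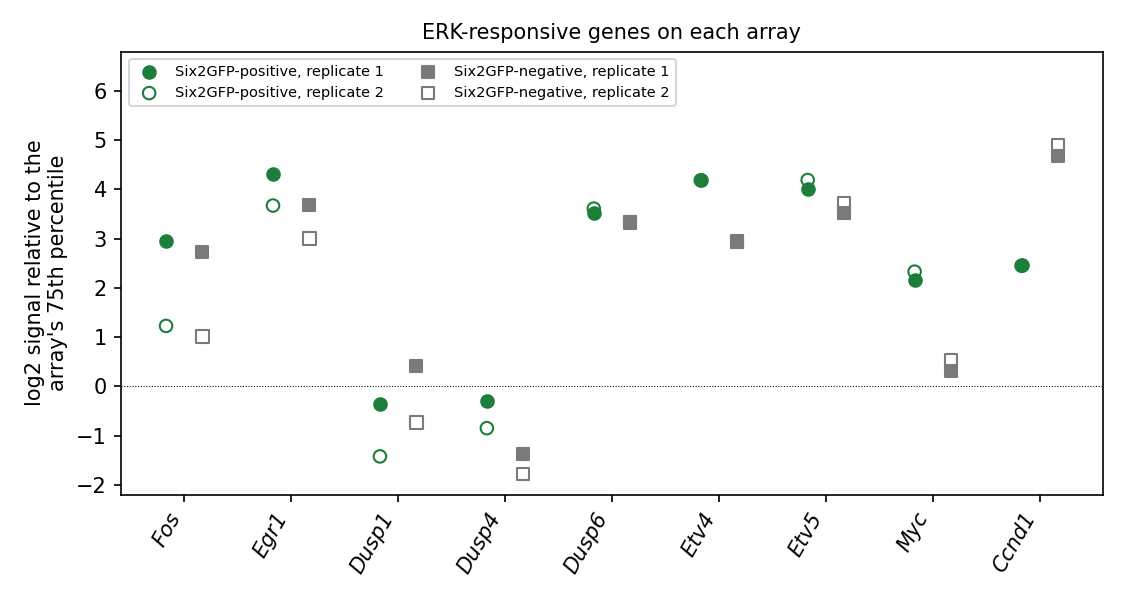
Log2 signal above or below the array's 75th percentile (vertical axis) of 9 ERK-responsive genes on each array; circles are Six2GFP-positive and squares Six2GFP-negative, filled for replicate 1 and open for replicate 2. Fos, Egr1, Dusp1 and Dusp4 have the filled symbol above the open one in both groups. The groups do not overlap for Dusp4, Dusp6, Etv4, Etv5, Myc and Ccnd1, of which Dusp6 did not pass the test.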

How the data were processed

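Cy3-labelled RNA of sorted E15.5 kidney cells was measured on Agilent design 026655, per the labels' protocols and the file headers. Per the file headers, the authors used Feature Extraction 10.7.3.1 (protocol GE1_107_Sep09), and the deposited files hold linear intensity per spot without normalization between arrays. The authors' value table holds the same intensity: 99.8% of probes on each array lay within 0.01 log2 of the scanner value, with array medians of 114 and 110 (positive) and 157 and 143 (negative). The 4 arrays shared 1 slide and 1 scan time.

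Outlier spots (108 to 174 of 43020 per array) were left out, spots of a probe were averaged, and log2 processed signal minus the array's 75th percentile was used. Probes had to be well above background on each array of 1 group or more (30012 probes, 48 of members). Names came from accessions in a RefSeq table where possible. The probe with the highest mean stood for a gene, and the other kept probes were adjusted over all probes. The comparison used lmFit and eBayes of limma 3.58.1 (R 4.3.3), two-sided, with Benjamini-Hochberg adjustment and a threshold of 0.05; the fit was tested on simulated data. Where no array of a group was above background, "at least" marks a bound: each dim array took the larger of its own value and the lowest signal called well above background, and the mean of these was set against the brighter group. The p-value beside a bound is that of the fitted difference and does not test the bound. Precision is limited by having 2 arrays a group.

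The members and lists were chosen with earlier results of these data known. Every member that passed, had a bound or had probes of opposite sign was named with its values, as were other pathway genes past the threshold with a log2 difference of at least 1, and Six2. The 14 alternatives covered normalization between arrays, normexp background correction (offset 50), the value table, the filter, the probe that stands for a gene, the variance model, the replicate block and leaving out each array. Whether a probe lies in an exon, intron or UTR was not analysed here. Some genes of the other pathway list are not reported here by name.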

Additional observations from a re-analysis of the deposited data

How the results depend on the processing

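No member changed direction with its call under the 14 alternatives. Of the 21 members that passed, 13 kept direction and call under every alternative that gave a value, and 8 (Dusp4, Fgfrl1, Spry1, Fgf2, Fgf18, Il17rd, Fgf5 and Spry3) lost the call under at least 1. Of the 13 that did not pass, 7 passed under at least 1. With 2 arrays per group a left-out array leaves its group with a lone sample, which is assumed to vary like the other group. Dim signals limit the rest: a filter on all 4 arrays gives no value for Fgf2, Fgf5, Fgf12, Fgf20 and Spry3. Beyond fewer genes or arrays, the cause of each change was not tested.

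Genes called higher numbered 4973 and lower 4421, against 10810 and 3767 with the array median and 2612 and 3824 with no filter. Leaving out an array gave 1267 to 2172 higher (1349 without positive array 1, 1267 without positive array 2, 2172 without negative array 1 and 1545 without negative array 2) and 3161 to 3531 lower. Members called were 17 higher and 9 lower with the array median, 10 higher and 6 lower with the filter on all 4 arrays, and 8 to 10 higher and 8 to 9 lower without 1 array. Of the other pathway genes, higher calls numbered 25 with the array median, 15 with normexp and the 75th percentile, 14 with normexp and quantile normalization, 5 with no filter, 15 with the intensity trend, and 4 to 6 without 1 array. Lower calls there numbered 5 with normexp and the 75th percentile, 5 with the intensity trend and 2 to 4 without 1 array. Of all genes, 44.8% (array median), 30.3% (normexp, 75th percentile), 26.3% (normexp, quantile), 8.19% (no filter) and 26.1% (intensity trend) were higher. In that order the other pathway genes gave 58.1%, 34.9%, 32.6%, 11.6% and 34.9%. Lower were 11.6% of them with normexp and the 75th percentile or with the trend, against 17.3% and 19.3% of all genes. With the filter on all 4 arrays 34.5% of members were higher and 20.7% lower, against 23.8% and 16.4% of all genes. The median difference of the paracrine ligands was 0.08 to 0.20 without 1 array, 0.41 with quantile normalization and 0.92 with the filter on all 4 arrays. That of the intracellular factors was -0.61 with quantile normalization, -0.24 with normexp, -0.20 with normexp and quantile normalization and -0.033 with the filter on all 4 arrays.

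Samples of the same number deviated together across genes at r = 0.22, but with 2 pairs and no label that ties them the numbers do not establish pairing. With the replicate number as a block, 11 members were higher and 9 lower, Spry1 no longer passing (adjusted p = 0.0540), and 4243 genes were higher and 4376 lower.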
